A study of Mus musculus with 8 samples.

Results

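The imprinted genes of distal mouse chromosome 7 were examined in wild-type and Htt-null cells, before and after retinoic acid (RA) differentiation. The group is set by name, and all 7 of H19, Igf2, Cdkn1c, Kcnq1ot1, Phlda2, Ascl2 and Slc22a18 were found among the 32567 genes of the RNA-seq count table. They were picked by name with their measured differences in these same libraries already known, so the values below describe the genes and no test is attached to them. All 7 passed an expression limit of 0 on the log2 scale of CPM (read counts scaled to a common library size), averaged by edgeR over the 4 libraries, as did 15492 genes in all. For Phlda2, Ascl2 and Slc22a18 only the embryonic stem cell libraries carried them over it.

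Poly-A-plus RNA came from embryonic stem cells (ESC) and from RA-differentiated cells (RA-DIFF), of a wild-type parental line and of its Htt-null counterpart, in which both copies of the mouse Huntington's disease gene carry the inactivating Hdh ex4/5 mutation. Each line was taken off feeder cells for 4 passages, embryoid bodies were grown for 8 days, 5 µM RA was present from day 4, and cells were collected 2 h after plating. The same 4 conditions were also taken for small RNA-seq. Every condition has 1 library, the Htt-null line is a single line, and no difference below has a replicate check. Total RNA-seq counts ran from 63617410 to 110569127 per library, so that a gene with no read could still lie at up to 0.0271 to 0.0472 CPM (the level of 3 counts).

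The 2 RA-DIFF libraries are named here by the labels of the deposited table, because the targeted gene went against them. Htt had 14385 reads in wild-type ESC and 7260 in Htt-null ESC, but 8212 in RA-DIFF of the wild-type label and 9722 in RA-DIFF of the Htt-null label. The per-condition expression values in the supplement of the study also went with the opposite RA-DIFF column, whereas in ESC they went with the labels. If the RA-DIFF labels are exchanged, every RA-DIFF difference between genotypes given below keeps its size and changes its sign. Pluripotency markers were checked as well: Pou5f1 stood at 747 and 674 CPM in wild-type and Htt-null ESC, and at 12.0 and 1.22 CPM in the RA-DIFF libraries labelled wild type and Htt-null.

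Imprinted genes are transcribed mainly from the copy of one parent. On distal chromosome 7 they form neighboring domains, each run by its own imprinting control region. Upstream of H19, a control region that binds the insulator protein CTCF on the maternal copy keeps shared enhancers away from Igf2, so that H19 is read from the maternal and Igf2 from the paternal copy. In the other domain the long noncoding RNA Kcnq1ot1 starts within Kcnq1 on the paternal copy and silences Cdkn1c, Phlda2, Slc22a18 and, in the placenta, Ascl2 on that copy. Counts per gene do not separate the parental copies, and none of the values below says from which copy a read came.

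The sequence between H19 and Igf2 was searched for CTCF letters. The core known from the sites of this control region (CCGCG, GG and GGCAG, in this order and each separated by 1 base of any kind) was searched on both strands of the 72622 bases of GRCm38.p6 that separate the 2 genes, and 3 matches were found, all on the minus strand (printed as read on it) and 2.17, 2.62 and 3.89 kb upstream of the H19 start. They are shown with 8 bases on each side, the match in capitals, because CTCF binding upstream of H19 is the known insulator of the domain. Of 1954 windows of the same length on chromosome 7, with this interval not left out, 6 (0.307%) held a match, and 1 held at least 3. Because the core comes from these very sites, finding it here was fixed in advance, and the share is background only. A match describes the letters only.
chr7:142580301-142580330: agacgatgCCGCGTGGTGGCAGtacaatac
chr7:142580756-142580785: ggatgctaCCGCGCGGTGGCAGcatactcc
chr7:142582026-142582055: gggagttgCCGCGTGGTGGCAGcaaaatcg

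H19 and Igf2 each carry a microRNA precursor, miR-675 in an exon of H19 and miR-483 in an intron of Igf2. The mature arms of miR-483, taken from RefSeq on GRCm38.p6, are printed with the seed (bases 2 to 8) in capitals, since they give another readout of the Igf2 locus that the choice of genes did not use. The 5p arm lies at chr7:142654968-142654989 and the 3p arm at chr7:142654932-142654952, both on the minus strand. The seeds differ from each other, and no other of the 1679 mature mouse miRNA names in RefSeq has either of them.
miR-483-5p: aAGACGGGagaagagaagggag
miR-483-3p: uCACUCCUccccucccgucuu

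H19 (ENSMUSG00000000031), a long noncoding RNA abundant in embryonic tissue, covers bases 142575529 to 142578143 of chromosome 7 (GRCm38, minus strand). It was counted 763 times in wild-type ESC, 368 times in Htt-null ESC, 3778 times in RA-DIFF of the wild-type label and 56339 times in RA-DIFF of the Htt-null label. Scaled to library size these are 8.68, 5.78, 34.2 and 558 CPM. One library thus stood far above the rest, and the order was RA-DIFF of the Htt-null label, then of the wild-type label, then the ESC libraries. Per length, as TPM (reads scaled first by exon length and then by library), H19 reached 905 TPM in the highest library, rank 80 among all genes there, against 53.9 TPM in the other RA-DIFF library and 13.4 and 8.62 TPM in wild-type and Htt-null ESC.

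Differences are given as log2 ratios of CPM after TMM scaling, with a 95% interval from the pair of counts. The interval covers counting error only, since copies made by PCR do not count as independent molecules, and it says nothing of the spread between cultures. A gene was taken as past the limit when its log2 ratio was beyond 0.75 in either direction. In RA-DIFF the log2 ratio of H19, labelled Htt-null over labelled wild type, was 4.08 (4.04 to 4.13). In ESC it was -0.64 (-0.82 to -0.46), inside the limit and of the opposite sign. In a bulk library a change in how many cells of a type are present and a change in RNA per cell cannot be told apart, which holds for every value here.

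Igf2 (ENSMUSG00000048583), the fetal growth factor whose start lies 88.7 kb upstream of that of H19, covers bases 142650766 to 142666816. Its counts were 193 in wild-type ESC, 131 in Htt-null ESC, 17716 in RA-DIFF of the wild-type label and 43494 in RA-DIFF of the Htt-null label, which are 2.20, 2.06, 160 and 431 CPM. Both RA-DIFF libraries were far above both ESC libraries, whose counting intervals overlapped. The RA-DIFF log2 ratio was 1.48 (1.46 to 1.51), or 2.79-fold, in the same direction as H19, and the ESC log2 ratio was -0.15 (-0.48 to 0.18). The antisense RNA Igf2os, which overlaps 98 exonic bases of Igf2, stood at 0.0796, 0.110, 1.62 and 4.14 CPM in the same order of libraries. The strand setting behind the counts was not tested, and the values of Igf2 and Igf2os are uncertain to that extent, as are those of Kcnq1ot1 and the Kcnq1 gene that it lies antisense to.

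**Figure D1:**
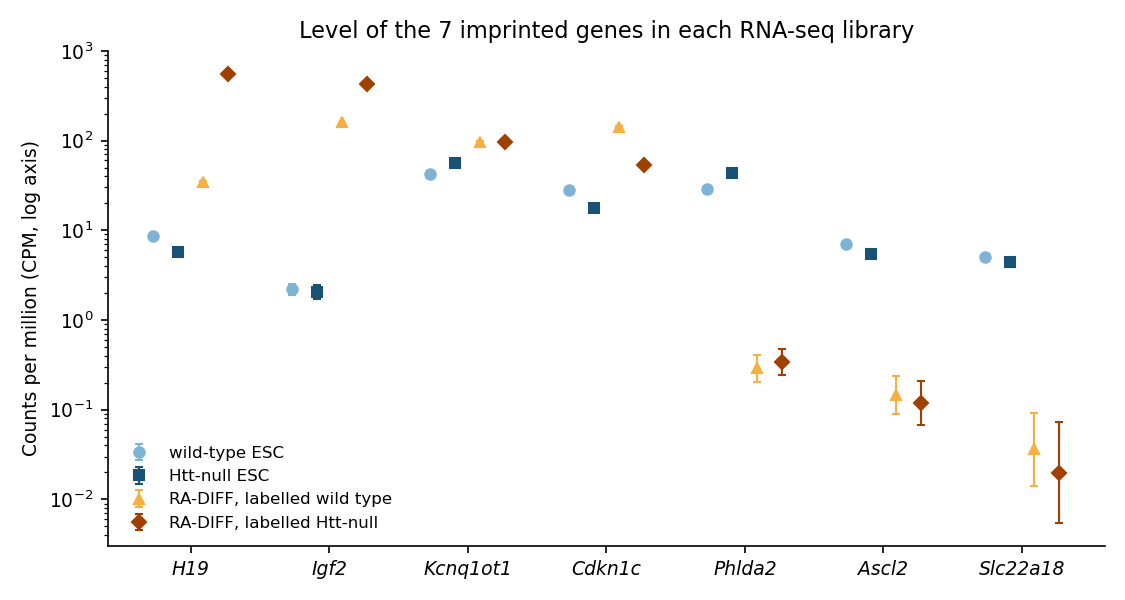
Level of each gene in each RNA-seq library, in CPM on a log axis, with Wilson 95% counting intervals; 1 point is 1 library. H19 spans 5.78 to 558 CPM, Kcnq1ot1 only 42.0 to 97.4 CPM, and Phlda2, Ascl2 and Slc22a18 lie at 0.337 CPM or less in both RA-DIFF libraries.

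Because H19 and Igf2 are known to draw on the same enhancers, their reads were compared within each library, where no scaling between libraries enters. Wild-type ESC gave 3.95 reads of H19 per read of Igf2 (3.37 to 4.65) and Htt-null ESC gave 2.81 (2.30 to 3.46). RA-DIFF of the wild-type label gave 0.213 (0.206 to 0.221), and the one labelled Htt-null gave 1.295 (1.28 to 1.31). The balance therefore lay with H19 in 3 libraries and with Igf2 in RA-DIFF of the wild-type label. Per exon length the same ratios were 9.20, 6.54, 0.496 and 3.01, with the same library as the exception. Both genes were higher in RA-DIFF of the Htt-null label, and H19 differed by more.

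**Figure D2:**
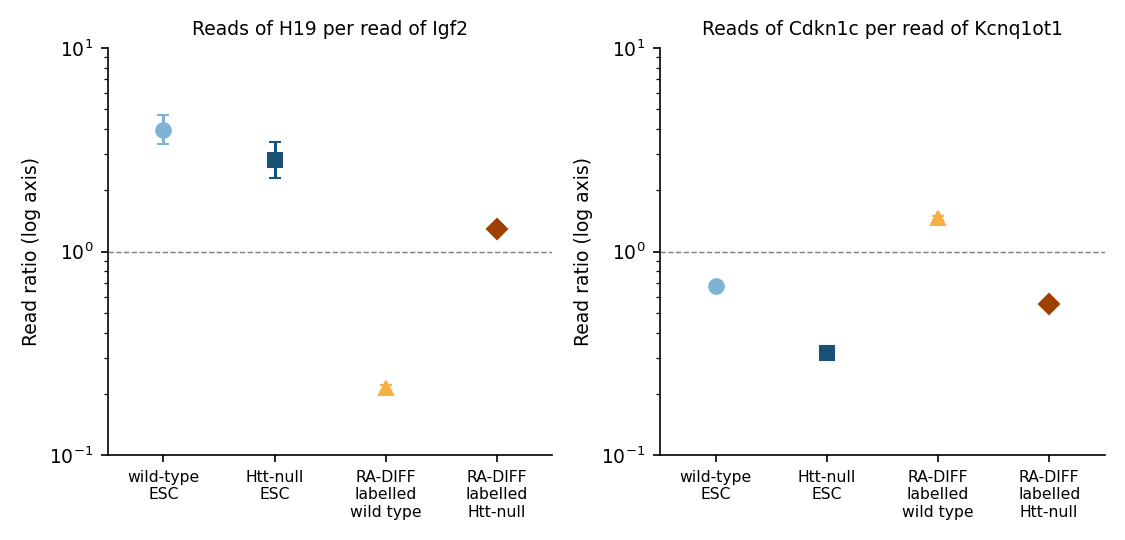
Reads of 1 gene per read of its domain partner within each library, on a log axis, with exact 95% counting intervals; the dashed line marks equal reads. H19 falls below Igf2 in RA-DIFF of the wild-type label alone, at 0.213, and reads of Cdkn1c exceed those of Kcnq1ot1 in that library alone, at 1.46. Exon length is not taken into account here, and per exon length Cdkn1c is the higher in every library.

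The microRNA of the Igf2 intron was read in the small RNA libraries, which held 11976744 to 25656673 counts. The 3p arm, whose sequence is printed above, was counted 5 times in wild-type ESC, 6 times in Htt-null ESC, 124 times in RA-DIFF of the wild-type label and 195 times in the one labelled Htt-null, or 0.388, 0.501, 4.83 and 8.03 CPM. The 5p arm was counted 3, 0, 30 and 44 times in the same order. Both arms were nearly absent from ESC and present in RA-DIFF. In RA-DIFF the log2 ratio of the 3p arm was 1.20 (0.88 to 1.55) after TMM scaling and 0.72 by library size alone, which falls inside the limit, and 14.7% of the 687 miRNAs above the expression limit were past it in the higher direction. The 5p arm gave 1.06 (0.41 to 1.83) after TMM scaling and 0.59 (-0.07 to 1.35) by library size alone, an interval that includes 0. Igf2 reads and miR-483 reads were both more numerous in the library labelled Htt-null, but whether the small RNA labels follow those of the RNA-seq table is not known. The arms of miR-675 were not analysed here.

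Kcnq1ot1 (ENSMUSG00000101609), the noncoding RNA of the second domain, covers bases 143212155 to 143296549 in the deposited annotation, antisense to Kcnq1. It had 3691 reads in wild-type ESC, 3571 in Htt-null ESC, 10768 in RA-DIFF of the wild-type label and 9834 in the one labelled Htt-null, which are 42.0, 56.1, 97.4 and 97.4 CPM. Its levels in RA-DIFF were nearly equal, and on the log scale its range over the 4 libraries was the narrowest of the 7 genes. The log2 ratio between genotypes was 0.36 (0.30 to 0.43) in ESC and 0.06 (0.02 to 0.10) in RA-DIFF, both inside the limit. Kcnq1, which encodes a potassium channel subunit and shares 121 exonic bases with Kcnq1ot1, had 34, 20, 9 and 6 reads. Per length Kcnq1ot1 stood at only 1.71 to 4.18 TPM, since its single exon is 93092 bases long in the annotation used.

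Cdkn1c (ENSMUSG00000037664) encodes p57Kip2, a cyclin-dependent kinase inhibitor and growth restrainer, and covers bases 143458350 to 143461050. It had 2491 reads in wild-type ESC, 1130 in Htt-null ESC, 15716 in RA-DIFF of the wild-type label and 5426 in the one labelled Htt-null, or 28.3, 17.8, 142 and 53.8 CPM. At each stage the library labelled Htt-null was the lower one. The log2 ratio was -0.73 (-0.83 to -0.63) in ESC, just inside the limit, and -1.35 (-1.39 to -1.30) in RA-DIFF, a level 2.54-fold lower. Reads of Cdkn1c per read of Kcnq1ot1 within a library were 0.675 and 0.316 in wild-type and Htt-null ESC, and 1.46 and 0.552 in the RA-DIFF libraries labelled wild type and Htt-null. Per exon length these ratios were 30.8, 14.4, 66.6 and 25.2 in the same order, so that Cdkn1c was the higher in every library. Exchanging the RA-DIFF labels would place Cdkn1c lower in Htt-null ESC and higher in Htt-null RA-DIFF.

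Of the 7 genes, none was past the limit between the ESC lines, where 8.61% of all genes above the expression limit were (5.14% higher and 3.47% lower). With relative log expression size factors in place of TMM, Cdkn1c was past it in the lower direction in ESC, at -0.76. Between the RA-DIFF libraries H19 and Igf2 were past it in the higher and Cdkn1c in the lower direction, where 11.7% and 8.99% of all genes were (20.7% in either direction). The median log2 ratio of the 7 genes was -0.23 in ESC and 0.06 in RA-DIFF, beside -0.04 and -0.01 over all genes above the limit. The genes had been chosen on these differences, and nothing is read from the counts.

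**Figure D3:**
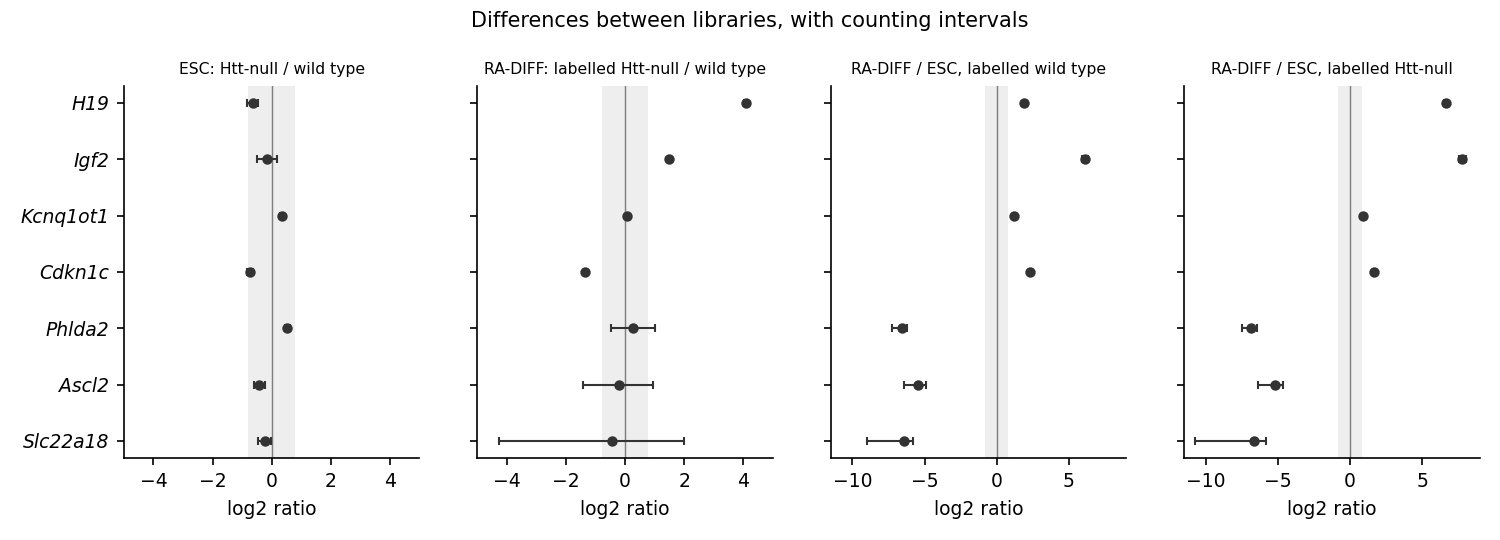
Log2 ratio of each gene in the 4 comparisons, with counting intervals; the grey band holds ratios inside the limit of 0.75. In RA-DIFF only H19 at 4.08, Igf2 at 1.48 and Cdkn1c at -1.35 leave the band, and the comparisons share libraries.

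Phlda2, Ascl2 and Slc22a18 had their highest levels in ESC and few reads in RA-DIFF. Phlda2 (ENSMUSG00000010760), a pleckstrin homology-like protein that restrains placental growth, covers bases 143501545 to 143502541. It had 2546 reads in wild-type ESC and 2772 in Htt-null ESC, but 32 and 34 in the RA-DIFF libraries labelled wild type and Htt-null, that is 29.0, 43.6, 0.289 and 0.337 CPM. Per length it was the highest of the 7 genes in both ESC libraries, at 97.9 and 143 TPM. The ESC log2 ratio was 0.53 (0.46 to 0.61), and the RA-DIFF log2 ratio, 0.26 (-0.47 to 1.02), could not be told from no difference at this depth.

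Ascl2 (ENSMUSG00000009248), a basic helix-loop-helix transcription factor needed for the placental spongiotrophoblast, covers bases 142966822 to 142969264. It had 619, 349, 16 and 12 reads in wild-type ESC, Htt-null ESC and the RA-DIFF libraries labelled wild type and Htt-null (7.04, 5.49, 0.145 and 0.119 CPM). Slc22a18 (ENSMUSG00000000154), an organic cation transporter family gene on the plus strand at bases 143473721 to 143499334, had 438, 280, 4 and 2 reads in the same order (4.98, 4.40, 0.0362 and 0.0198 CPM), the last count lying under the 3 counts that a gene without reads may have. For both genes the ESC libraries were well above the RA-DIFF libraries, which did not differ detectably at this depth. Their ESC log2 ratios were -0.41 (-0.61 to -0.22) and -0.23 (-0.46 to -0.02), opposite in sign to Phlda2 and inside the limit.

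The 250 bases before the start of each of these 3 genes are printed from RefSeq on GRCm38.p6, 5′ to 3′ on the strand of the gene, because the genes moved together with RA. They lie at chr7:143502525-143502774 (minus), chr7:142969265-142969514 (minus) and chr7:143473539-143473788 (plus). Capitals mark the TATA box TATAAA, the GC box GGGCGG and the CCAAT box CCAAT, searched on both strands of windows that also took in 50 bases after the start.
Phlda2: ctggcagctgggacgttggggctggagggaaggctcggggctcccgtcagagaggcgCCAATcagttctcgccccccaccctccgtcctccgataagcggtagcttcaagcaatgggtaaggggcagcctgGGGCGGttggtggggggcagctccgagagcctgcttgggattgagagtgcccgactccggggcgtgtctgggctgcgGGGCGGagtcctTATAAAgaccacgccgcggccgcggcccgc
Ascl2: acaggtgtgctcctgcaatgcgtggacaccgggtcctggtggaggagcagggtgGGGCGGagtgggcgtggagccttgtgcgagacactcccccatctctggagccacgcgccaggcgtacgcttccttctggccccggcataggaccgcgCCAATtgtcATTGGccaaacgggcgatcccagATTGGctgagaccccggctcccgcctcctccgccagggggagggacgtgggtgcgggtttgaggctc
Slc22a18: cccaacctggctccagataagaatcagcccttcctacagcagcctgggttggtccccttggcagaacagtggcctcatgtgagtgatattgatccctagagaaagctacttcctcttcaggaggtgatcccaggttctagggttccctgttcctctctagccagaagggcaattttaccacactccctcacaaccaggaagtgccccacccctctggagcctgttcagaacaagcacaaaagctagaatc

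Phlda2 had 1 TATA box, starting 30 bases before the start, with 2 GC boxes, 1 CCAAT box and 26 CpG. Ascl2 likewise had a GC box, with 3 CCAAT boxes and 23 CpG, whereas Slc22a18 had none of these letters and 2 CpG. Among 32851 RefSeq windows of the same length, 13.6% held TATAAA, 35.7% GGGCGG and 37.4% CCAAT, and the median was 7 CpG. Kcnq1ot1 had 3 CCAAT boxes and 9 CpG. Igf2 had 4 windows, with 2, 14, 24 and 7 CpG, and the last 2 of them held 1 and 2 GC boxes. H19 and Cdkn1c had no entry.

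RA divided the genes into those that rose past the limit and those that fell past it, and the division was the same in both pairs of libraries. The call for Kcnq1ot1 was lost in both pairs when an exact test at an assumed dispersion of 0.1 was added, and in cells labelled Htt-null at a limit of 1, and those for Ascl2 and Slc22a18 were lost in both pairs under a filter on the plain mean of the log2 CPM values, chosen after seeing the data. In cells labelled wild type the log2 ratio of RA-DIFF over ESC was 6.14 (5.95 to 6.36) for Igf2, 2.29 (2.23 to 2.35) for Cdkn1c, 1.94 (1.83 to 2.05) for H19 and 1.17 (1.12 to 1.23) for Kcnq1ot1. In cells labelled Htt-null it was 7.77 (7.53 to 8.04) for Igf2, 6.66 (6.52 to 6.82) for H19, 1.67 (1.58 to 1.76) for Cdkn1c and 0.87 (0.81 to 0.92) for Kcnq1ot1. H19 lay below Igf2 and Cdkn1c in the cells labelled wild type, and below Igf2 alone in those labelled Htt-null.

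The falls were past the limit in both pairs, but they rest on 2 to 34 reads per gene in RA-DIFF, so their sizes are not compared. These genes had passed the expression limit through the ESC libraries alone. Phlda2 fell by 6.58 on the log2 scale in cells labelled wild type and by 6.85 in cells labelled Htt-null. Slc22a18 fell by 6.46 in the former and fell by 6.67 in the latter, with intervals reaching from -9.03 to -5.78 and from -10.78 to -5.86 because so few reads were left. Ascl2 fell by 5.44 and fell by 5.22. In both pairs 4 of the 7 genes were past the limit in the higher and 3 in the lower direction. Over all genes above the expression limit these shares were 33.9% and 26.1% in cells labelled wild type and 34.3% and 24.8% in cells labelled Htt-null, 60.1% and 59.2% in either direction. With the RA-DIFF labels exchanged, the log2 ratios of H19 would be 6.02 in wild-type and 2.57 in Htt-null cells. Those of Igf2 would be 7.62 and 6.28, and those of Cdkn1c 0.94 and 3.02.

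Position along the chromosome was laid beside these values. From Ctsd to Dhcr7 the table holds 46 genes, 26 of them above the expression limit, and 19 of those are not among the 7. Between the RA-DIFF libraries 5 of the 19 were past the limit in the higher direction (Lsp1, Igf2os, Trpm5, Tnfrsf23 and Osbpl5) and Th in the lower, beside 11.7% and 8.99% of all genes, and the median log2 ratio of the 19 was -0.03. Within the Kcnq1ot1 domain, the start of Cdkn1c, at -1.35, lies 164.5 kb from that of Kcnq1ot1, whose log2 ratio was 0.06. Slc22a18, whose start is 12.7 kb from that of Cdkn1c, had 4 and 2 reads in RA-DIFF, and its log2 ratio of -0.45 (-4.28 to 1.99) cannot be told from that of Cdkn1c. Th, which encodes the rate-limiting enzyme of catecholamine synthesis, had the lowest log2 ratio of the interval, -2.92, and H19 the highest.

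Between the ESC lines 2 of the 19 were past the limit in the higher direction (Lsp1 and Tnfrsf22) and 3 in the lower (Tspan32, Tspan32os and Tnfrsf23), beside 5.14% and 3.47% of all genes, with a median of -0.09. Tnfrsf22, a decoy receptor gene whose start lies 1072 kb from that of H19, was the abundant one. It had 205 CPM in wild-type and 449 CPM in Htt-null ESC (log2 ratio 1.08), and it fell to 23.4 and 26.0 CPM in RA-DIFF. Tspan32, which lies beyond Ascl2 on the Kcnq1 side, went the way of Ascl2, with 493 and 200 reads in wild-type and Htt-null ESC and 11 and 9 in RA-DIFF.

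**Figure D4:**
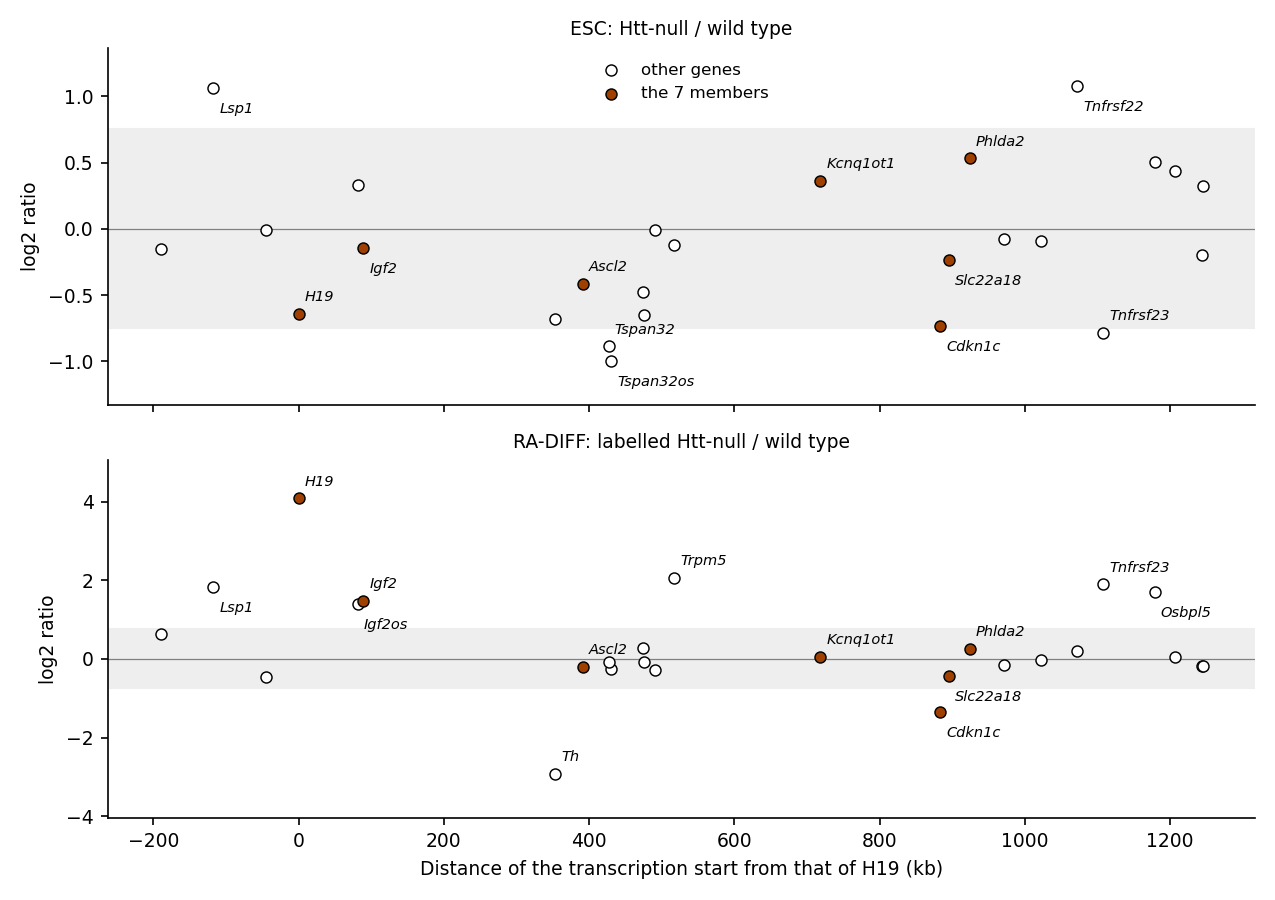
Log2 ratio between genotypes for the 26 genes from Ctsd to Dhcr7 above the expression limit, by distance of their start from the H19 start in kb; the grey band is the limit of 0.75 and the vertical scales differ. In RA-DIFF H19 at 4.08 and Th at -2.92 are the extremes.

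Genes that act on the same pathway were followed through lists. Of 6 IGF2 receptor and IGF2 mRNA-binding protein genes, 1 was past the limit in the higher direction between the RA-DIFF libraries (Igf1r, the signaling receptor, log2 ratio 0.88) and 1 in the lower (Igf2bp1, which binds Igf2 mRNA, log2 ratio -0.93), beside 11.7% and 8.99% of all genes. Igf2r, itself imprinted and the receptor that clears IGF2, was inside it at 0.17. In ESC none of the 6 was past the limit. Of 12 factors that keep or erase imprints, Dppa3, a protector of maternal methylation, was past the limit in ESC in the higher direction (91 reads in wild type, 551 in Htt-null, log2 ratio 2.98), where 5.14% of all genes were, and Dppa3 and Dnmt3l in RA-DIFF in the lower (log2 ratios -2.69 and -2.61), where 8.99% were. Between the same RA-DIFF libraries 6 of the 8 pluripotency markers were past the limit in the lower direction and none in the higher (8.99% and 11.7% of all genes), with a median log2 ratio of -2.42, and their part in the Dppa3 and Dnmt3l differences was not tested. Ctcf itself stood at 210, 215, 237 and 213 CPM in wild-type ESC, Htt-null ESC and the RA-DIFF libraries labelled wild type and Htt-null.

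Imprinted genes elsewhere in the genome were compared as a list of 24. Between the RA-DIFF libraries 8 were past the limit in the higher direction and none in the lower (11.7% and 8.99% of all genes), with a median log2 ratio of 0.52 beside -0.01 over all genes. Mest, a paternally expressed hydrolase gene, had the highest log2 ratio, 3.46, with 238 CPM in the library labelled wild type and 2531 CPM in the one labelled Htt-null. Peg3, a paternally expressed zinc finger gene, stood at 1.65, with 397 and 1200 CPM. In ESC 4 were past it in the higher and 2 in the lower direction (5.14% and 3.47% of all genes), among them the maternally expressed noncoding RNA Meg3 at 1.21 and the growth factor adaptor Grb10 at -1.46. The other gene past it in the lower direction was Dcn, with 10 and 0 reads. With RA 18 of the 24 rose past the limit in either pair, where 33.9% and 34.3% of all genes did, whereas 3 fell in cells labelled wild type and 1 in cells labelled Htt-null, where 26.1% and 24.8% did.

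Markers of other cell types moved with H19 and Igf2. Of 12 mesenchyme markers, which include Tagln and share Dcn with the list of imprinted genes, 11 were past the limit in the higher direction in RA-DIFF and all 12 had higher values, with a median log2 ratio of 1.91, where 11.7% of all genes were past it in that direction and the median was -0.01. Their summed level was 1811 TPM in RA-DIFF of the wild-type label and 4674 TPM in the one labelled Htt-null. Acta2, smooth muscle actin, went from 41.5 to 620 CPM and Col1a1 from 47.9 to 192 CPM. In ESC the summed level was 99.1 TPM in wild type and 88.8 TPM in Htt-null, with 6 of 12 past the limit in the lower direction (3.47% of all genes) and 1 in the higher (5.14%), Lum, which had 0 and 1 reads. Dcn had 10 and 0 reads. With RA all 12 were past the limit in the higher direction in both pairs, as were 33.9% and 34.3% of all genes. The study counts more collagen formation genes lowered than raised in Htt-null RA-DIFF, which is opposite to the labelled direction here. The part of the mesenchyme markers in the differences of H19, Igf2 and the imprinted genes elsewhere was not tested.

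Cdkn1c went the way of the neuron markers in RA-DIFF. Of these 10, 8 were past the limit in the lower direction and none in the higher (8.99% and 11.7% of all genes), with a median log2 ratio of -1.25, and their summed level was 2714 TPM in the library labelled wild type and 975 TPM in the one labelled Htt-null. Tubb3, the neuronal tubulin, went from 887 to 265 CPM. With a marker list of its own, the study reports the other direction, most neuron-specific genes being raised by the Htt null mutation after RA. The part of the neuron markers in the Cdkn1c difference was not tested. In ESC the neuron list had 2 genes past the limit in the higher direction (5.14% of all genes) and none in the lower (3.47%), Tubb3 and Dcx, the latter with 5 and 8 reads.

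Trophoblast and yolk sac markers bear on the genes named for placenta. Of 10 trophoblast markers 5 passed the expression limit. Tpbpa had no read in either ESC library, Cdx2 had 0 and 3, Hand1 11 and 13, Elf5 29 and 18, and Gcm1 15 and 45 in wild-type and Htt-null ESC. The summed level of the 10, mostly keratins and Tfap2c, was 129 and 127 TPM in these libraries and 26.1 and 22.4 TPM in the RA-DIFF libraries labelled wild type and Htt-null, so that it fell along with Phlda2 and Ascl2; its part in their fall was not tested. The 8 pluripotency markers were likewise all past the limit in the lower direction with RA in both pairs (26.1% and 24.8% of all genes), their summed level going from 14866 to 539 TPM in cells labelled wild type and from 10627 to 428 TPM in cells labelled Htt-null. Visceral endoderm markers, 6 of 10 of them above the expression limit, summed to 9.35 and 26.4 TPM in the RA-DIFF libraries labelled wild type and Htt-null, of which Foxa2 made up 3.13 and 20.2 TPM. Foxa2 alone was past the limit in the higher direction and Hnf4a alone in the lower, beside 11.7% and 8.99% of all genes. Hnf4a had only 18 and 2 reads, and Afp had 1 and 6. Endothelial markers summed to 15.4 and 46.3 TPM, of which Kdr made up 7.82 and 30.9 TPM. Of the 7 of 8 above the expression limit, 3 were past the limit in the higher direction and 1, Pecam1, in the lower (log2 ratio -1.35), beside 11.7% and 8.99% of all genes. Skeletal muscle markers summed to 16.5 and 23.4 TPM. Of the 5 of 8 above the expression limit, 2 were past the limit in the higher direction and none in the lower, beside 11.7% and 8.99% of all genes.

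**Figure D5:**
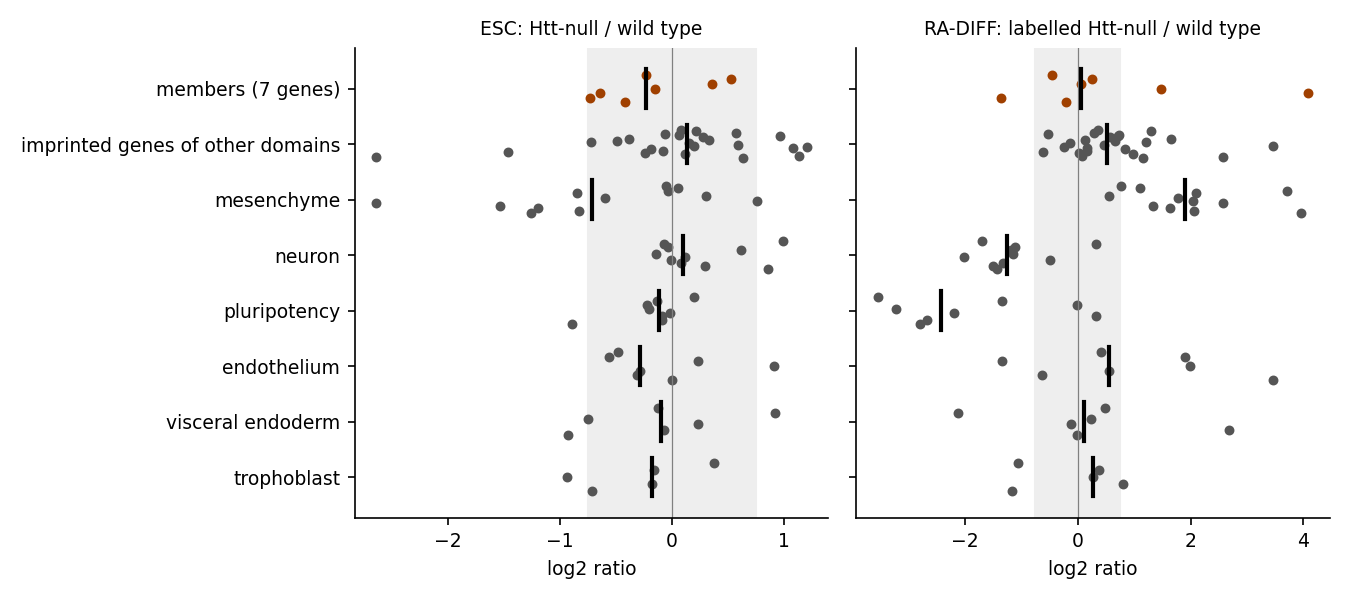
Log2 ratio between genotypes of each gene above the expression limit in 8 lists; 1 point is 1 gene, black bars are list medians and the grey band is the limit of 0.75. In RA-DIFF the mesenchyme median is 1.91 and the neuron median -1.25, with H19 and Cdkn1c at 4.08 and -1.35 among the 7 genes of the top line.

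For each gene the 5 genes with the nearest pattern were found by the distance between the 4 log2 CPM values, each gene centered on its own mean, among 15491 others. Nearest to H19 were Fmod (distance 0.47), Cybrd1, Tagln, Il33 and Cxcl15. Fmod encodes the small leucine-rich proteoglycan fibromodulin and Tagln the smooth muscle protein transgelin, and their counts ran 11, 7, 87 and 1465, and 268, 197, 1378 and 15892, in wild-type ESC, Htt-null ESC and the RA-DIFF libraries labelled wild type and Htt-null. Among those nearest to Igf2 were Kcnd3 (0.19), Sncaip, Abca9 and Atoh8, and nearest to Cdkn1c were 6430571L13Rik (0.30), Syt7, Begain, Dmrt3 and Ppfia3. With 4 libraries many genes share a pattern, and the distances are a description.

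The remaining genes had nearer neighbors. Thap7 (0.04), Lztr1, Ahsa2, Apoo and 6330549D23Rik were nearest to Kcnq1ot1. Tnfrsf8 (0.16), Platr23, Gm3336, Inpp5d and Gm10522 were nearest to Phlda2, Atp12a (0.12), Gm6871, Rasal3, Crocc2 and Pnma5 to Ascl2, and Dcstamp (0.15), Platr16, Pkp3, 2610528J11Rik and Gm13657 to Slc22a18. Among the 7 genes themselves, Slc22a18 was rank 47 in nearness to Phlda2, at a distance of 0.75, and their starts are 28.8 kb apart on opposite strands. The Slc22a18 pattern rests on 4 and 2 reads in RA-DIFF. Cdkn1c, whose start is 12.7 kb from that of Slc22a18, had rank 12935 in nearness to Slc22a18. Ascl2, whose start is 533 kb from that of Phlda2, had rank 252 in nearness to Phlda2. Igf2 had rank 1072 in nearness to H19, at 3.25, although their starts are 88.7 kb apart.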

How the data were processed

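RNA-seq and small RNA-seq were analysed from 8 samples, 1 library for each of 4 conditions per assay. The authors aligned 50 bp paired-end reads of dUTP strand-specific libraries to GRCm38.p4 with TopHat2 2.0.14, counted them per gene with HTSeq 0.6.1 and deposited the counts without normalization; the study's methods name no strand option and say that defaults were kept where nothing else is stated. The default of HTSeq would count the strand opposite to the gene in dUTP libraries. Which setting made these counts was not tested. For small RNA the authors trimmed reads with cutadapt 1.3, mapped them to mature miRNAs with BWA 0.7.5a-r418 and deposited counts of uniquely mapped reads. Samples were grouped by their titles, and no column was left out.

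The 7 genes, the lists and the settings were chosen with earlier results of these data known. CPM was scaled with TMM factors over the 4 libraries of an assay (edgeR 4.0.16, R 4.3.3), and log2 ratios used a prior count of 2. With 1 library per condition the reported values carry no test. A gene was past the limit at an absolute log2 ratio above 0.75 with an average log2 CPM above 0. Intervals at the 95% level are Wilson intervals for CPM and exact binomial intervals for ratios. TPM used exon lengths of GENCODE vM21, found for 32304 of 32567 genes. Named genes are the 7 genes, Htt, the genes of the lists, the miRNAs hosted by H19 and Igf2 and, for each of the 7, the 5 genes with the nearest pattern, of which 1 is not reported here; Tspan32os lies outside this rule and was named after its value was seen. Alternatives were library size alone, relative log expression size factors, no expression filter, a prior count of 0.5, a limit of 1, an added exact test with an assumed dispersion of 0.01 or 0.1, and exchanged RA-DIFF labels. The log2 ratio step was tested on simulated counts. Other steps used Python 3.11.15 (pandas 2.3.3, numpy 2.4.6, scipy 1.17.1) and figures matplotlib 3.10.9.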

Additional observations from a re-analysis of the deposited data

Results flagged for a closer look

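H19 differed between genotypes in opposite directions at the 2 stages: comparing Htt-null with wild type, the log2 ratio was -0.64 between the ESC libraries and 4.08 between those of RA-DIFF as labelled, and both counting intervals lay to 1 side of 0. With the RA-DIFF labels exchanged both ratios are negative. Each stage has 1 library per genotype, and the difference between the stages was not tested.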

How the results depend on the processing

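No paired analysis was possible because each condition has 1 library and the labels carry no replicate numbers, and leaving out a library would leave its condition empty. An additive fit of line and stage, whose only error is the difference between the stages, was not run. Relative log expression size factors placed 1 of the 7 genes, Cdkn1c, past the limit in ESC in the lower direction, where TMM placed 0. Exchanging the RA-DIFF labels gave 1 gene past the limit in the higher direction (Cdkn1c, 1.35) and 2 in the lower (H19, -4.08, and Igf2, -1.48), and turned miR-483-3p to -1.20 and miR-483-5p to -1.06. A filter on the plain mean of the 4 log2 CPM values, chosen after seeing the data, left 1 gene, Phlda2, in the lower direction with RA in both pairs, since Ascl2 and Slc22a18 no longer passed it. Kcnq1ot1 was no longer past the limit with RA in either pair when the exact test at a dispersion of 0.1 was added, nor in cells labelled Htt-null at a limit of 1. Library size alone moved no log2 ratio of the 7 genes by more than 0.07, relative log expression factors by no more than 0.05, and a prior count of 0.5 by no more than 0.71, at Slc22a18; none of these changed a sign. For the miR-483 arms a prior count of 0.5 moved a log2 ratio by up to 1.97, library size alone by up to 1.66 and relative log expression factors by up to 0.23.

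Over all genes, 797 were past the limit in the higher and 537 in the lower direction in ESC, against 5217 and 2943 with no expression filter, 458 and 286 at a limit of 1, and 152 and 100 at a dispersion of 0.1. In RA-DIFF the counts were 1817 and 1393, against 4204 and 4384 with no filter, 815 and 526 at a dispersion of 0.1, and 1296 and 897 at a limit of 1. With RA they were 5256 and 4051 in cells labelled wild type, against 10162 and 8674 with no filter and 3681 and 2673 at a dispersion of 0.1. In cells labelled Htt-null they were 5317 and 3847, against 9567 and 9945 with no filter and 3725 and 2466 at a dispersion of 0.1. Depth limits Slc22a18, Ascl2 and Phlda2 in RA-DIFF, with 2 to 34 reads, and miR-483 in ESC, with 0 to 6.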

Other observations

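Of the 12 factors that keep or erase imprints, 6 were past the limit in the lower direction with RA in cells labelled wild type and 7 in cells labelled Htt-null, where 26.1% and 24.8% of all genes were. None was past it in the higher direction, and the medians were -0.81 and -1.07, beside 0.12 and 0.17 over all genes. Ctcf, at 0.14 and 0.06, was among those inside the limit. All 8 pluripotency markers were past the limit in the lower direction in both pairs (26.1% and 24.8% of all genes), with medians of -6.15 and -8.68. Their part in the falls of the imprint factors was not tested. Dnmt3l, the cofactor of de novo DNA methylation, stood at 280 and 258 CPM in wild-type and Htt-null ESC and at 2.51 and 0.377 CPM in the RA-DIFF libraries labelled wild type and Htt-null. Zfp57, a zinc finger protein that binds methylated imprint control regions, stood at 340, 350, 116 and 80.8 CPM in the same order, and its partner Trim28 at 1817, 1846, 979 and 769 CPM.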
